A study of Mus musculus with 52 samples.

Results

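The mitochondrial ribosomal protein genes are nuclear genes named for proteins of the large subunit (symbols Mrpl) and the small subunit (symbols Mrps) of the ribosome inside mitochondria. They were taken as every protein-coding gene on chromosomes 1 to 19 and X of the GRCm38 gene table whose symbol starts with Mrpl or Mrps followed by a digit. This gave 78 genes of 21627 protein-coding genes, 49 with an Mrpl and 29 with an Mrps symbol. Each was examined as a locus, meaning its gene body with 10 kb added on each side, in chromatin immunoprecipitation sequencing (ChIP-seq) of mouse brown adipose tissue (BAT). Of the 52 samples in the series, 35 ChIP libraries had a list of called peaks and were used, and the other 17, all inputs, were not analysed here.

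Tissue came from mice kept at room temperature (RT) or exposed to cold for 4 h. Wild-type (WT) mice gave 3 RT and 3 cold libraries for PPARG, 1 RT and 1 cold library for ERR1, and 3 RT and 3 cold libraries for H3K27ac, a histone mark of active promoters and enhancers. HA-PPARA KI (knock-in) mice gave 2 RT and 3 cold PPARA libraries, HA-CEBPA KI mice gave 3 RT CEBPA libraries, and HA-CEBPB KI mice gave 2 cold CEBPB libraries. PGC1A was measured in 3 cold libraries from PGC1A-HIsHA KI mice, except that the genotype label of the third names HA-CEBPA KI. All 4 knock-in proteins were pulled down with the same antibody, so each of those lists shows the tagged protein in an engineered allele. H3K27ac was also measured in TXNIP KO mice (2 RT, 2 cold) and TXNIP WT mice (2 RT, 2 cold). Tissue for H3K27ac was crosslinked with formaldehyde alone, and for all other targets with the protein crosslinker DSG and then formaldehyde. TXNIP is an arrestin-like protein that limits glucose uptake. The labels used here give no age or sex, and they do not say that replicates came from separate animals, so p-values reflect how far these libraries spread, and that spread could be technical alone.

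The mitochondrial ribosome translates the few messages encoded in mitochondrial DNA, all of which specify subunits of the respiratory chain and ATP synthase, while its own proteins are made in the cytosol and imported. Brown adipocytes are packed with mitochondria and burn fuel for heat, so they need mitochondrial and nuclear gene products in step. The nuclear receptor ERR1 and its coactivator PGC1A are known for driving genes of oxidative metabolism, PPARG and PPARA are lipid-sensing nuclear receptors of adipocytes and of fat oxidation, and CEBPA and CEBPB are adipocyte transcription factors.

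The number of peaks differed widely between lists, from 2352 to 3061 for PGC1A and 7324 to 11115 for PPARA in cold to 55716 to 60230 for H3K27ac in the WT cohort at RT. ERR1 had 16021 peaks at RT and 45811 in cold. All 10 listed brown adipocyte markers had H3K27ac sites in every group except that Elovl3, a fatty acid elongase, had none in TXNIP KO mice at RT. The skeletal muscle markers Ckm, Acta1, Myh1 and Myh4 had no H3K27ac site in any group, while Mylpf and Tnnt3, the other 2 of the 6 listed, had sites in every group, and the list summed to 3.97 to 11.36 kb per library. The Txnip locus carried 22572 to 23415 bp of H3K27ac peaks in the 4 TXNIP KO libraries, against 21432 to 22491 bp in the other 10, so the mark does not check the deletion. The third PGC1A library, with its differing genotype label, shared 68.4% of its peaks with the first and 63.0% with the second PGC1A library, and 62.2% to 77.0% with the CEBPA libraries. For the first PGC1A library the matching shares with the CEBPA libraries were 63.5% to 77.9%. These are whole-tissue samples, in which fewer cells of a type and less signal per cell cannot be told apart.

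The 78 genes are compact. Their median locus was 27.69 kb long, against 37.39 kb for all other genes, and their median gene body 7.69 kb. A start site was listed inside the gene body for 69 of the 78. Of these, 23 (33.3%) had the start of another gene running the opposite way within 1 kb, against 1467 of 17273 genes with a start (8.5%). Mrpl46 and Mrps11, 1 protein of each subunit, start 42 bp apart on opposite strands. Mrpl47 is paired in this way with Ndufb5, a respiratory complex I subunit, at 308 bp, Mrps12 with the mitochondrial seryl-tRNA synthetase gene Sars2 at 147 bp, and Mrps27 with Ptcd2, a mitochondrial RNA-binding protein, at 108 bp. For 72 of the 78, the locus overlapped that of another gene, so a peak counted here can lie at a neighbour's start.

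The promoters of 5 members are printed here because ERR1 peaks had summits near each start at both temperatures. Mrps21, Mrps15, Mrpl12 and Mrpl36 are all the members whose promoter, 250 bases before to 50 after the start, contained AAGGTCA, the core motif of ERR binding sites, on either strand. Mrpl39 had the second highest ERR1 enrichment at its start without that motif. The sequences are from RefSeq on GRCm38.p6, 5′ to 3′ along the gene: chr3:95871465-95871764 on the minus strand, chr4:126046678-126046977 on the plus strand, chr11:120484387-120484686 on the plus strand, chr13:73330759-73331058 on the plus strand and chr16:84735195-84735494 on the minus strand. Capitals mark AAGGTCA or its reverse complement TGACCTT, the ETS-factor GABPA motif ACCGGAAG (CTTCCGGT), the YY1 motif AAGATGGCG (CGCCATCTT) and the NRF1 motif, GCGCA followed directly by TGCGC. These 5 were chosen after their values were seen.

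Mrps21: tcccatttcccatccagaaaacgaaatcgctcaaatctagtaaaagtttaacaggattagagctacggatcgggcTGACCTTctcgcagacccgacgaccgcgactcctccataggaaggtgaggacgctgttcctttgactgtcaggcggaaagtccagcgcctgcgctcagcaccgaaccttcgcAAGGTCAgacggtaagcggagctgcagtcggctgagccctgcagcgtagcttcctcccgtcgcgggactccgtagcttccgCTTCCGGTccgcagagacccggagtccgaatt
Mrps15: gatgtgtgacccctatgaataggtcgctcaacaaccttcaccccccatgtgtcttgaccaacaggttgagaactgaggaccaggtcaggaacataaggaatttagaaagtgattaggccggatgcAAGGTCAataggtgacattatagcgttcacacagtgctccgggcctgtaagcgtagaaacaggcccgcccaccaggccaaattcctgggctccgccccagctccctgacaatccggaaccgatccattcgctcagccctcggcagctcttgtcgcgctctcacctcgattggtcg
Mrpl12: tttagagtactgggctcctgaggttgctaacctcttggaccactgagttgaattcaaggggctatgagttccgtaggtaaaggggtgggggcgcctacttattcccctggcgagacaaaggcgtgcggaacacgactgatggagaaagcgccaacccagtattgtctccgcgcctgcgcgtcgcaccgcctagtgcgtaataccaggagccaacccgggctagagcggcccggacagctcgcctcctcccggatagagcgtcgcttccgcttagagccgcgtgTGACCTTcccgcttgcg
Mrpl36: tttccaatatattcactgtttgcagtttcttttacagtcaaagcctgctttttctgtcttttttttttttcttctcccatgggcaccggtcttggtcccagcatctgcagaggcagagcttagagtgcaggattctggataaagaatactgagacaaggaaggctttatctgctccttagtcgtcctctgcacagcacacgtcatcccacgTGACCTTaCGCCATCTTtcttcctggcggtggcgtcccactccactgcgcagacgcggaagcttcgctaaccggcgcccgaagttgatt
Mrpl39: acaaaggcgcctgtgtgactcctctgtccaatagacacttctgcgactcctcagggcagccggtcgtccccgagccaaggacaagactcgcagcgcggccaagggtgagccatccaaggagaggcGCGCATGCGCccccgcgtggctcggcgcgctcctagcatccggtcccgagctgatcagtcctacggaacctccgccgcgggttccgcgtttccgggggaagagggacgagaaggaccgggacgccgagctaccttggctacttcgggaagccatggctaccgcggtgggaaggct

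Mrps21 held AAGGTCA at 175 and 63 bases before its start, Mrps15 at 125 bases before, and Mrpl36 at 39 bases before. In Mrpl12 it lay 33 bases after the start. At Mrps21, the ERR1 summits fell at -129 bp (RT) and -86 bp (cold) from the start and the PGC1A summits at -62, -54 and -59 bp in the 3 libraries, all inside the printed sequence and between or close to its 2 motifs. The longer ERR response element TCAAGGTCA was found in 0 of 69 member promoters and in 58 of 17273 of all promoters (0.336%) and the shorter motif was searched after that. It was present in 4 member promoters (5.80%), against 4.04% of all promoters and 2.88% of the 8618 other promoters with H3K27ac at the start in all 14 libraries. All 4 were among the 31 members with an ERR1 summit within 1 kb of the start at RT, and 0 were among the other 38. A match is a description of the letters in this window: at Mrps18b and Mrpl47 the ERR1 summits lay more than 250 bp before the start, outside it.

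Motifs of general promoter factors were commoner in members than in other promoters with the mark. The GABPA motif was in 9 of 69 (13%), against 5.44% of other acetylated promoters and 3.12% of all. The YY1 motif was in 8 (11.6%), against 3.5% and 1.92%. The NRF1 motif was in 3 (4.35%: Mrpl9, Mrpl32 and Mrpl39), against 2.41% and 1.35%. Respiratory chain promoters had the GABPA, YY1 and NRF1 motifs at 9.76%, 8.54% and 8.54%. Cytosolic ribosomal protein promoters had them at 14.8%, 4.92% and 1.64%. The GABPA motif was thus most frequent in the cytosolic list, NRF1 in the respiratory chain and YY1 in members. GABPA, YY1 and NRF1 are known activators of nuclear genes for mitochondrial proteins. CCAAT, the box bound by NFY, was as common in members (39.1%) as in all promoters (39.6%), and the PPAR element, 2 copies of AGGTCA in the same direction with 1 base between, and the C/EBP palindrome TTGCGCAA were in 0 of 69. Motifs were searched on both strands, with no test made of these shares, and median GC content was 58.3% in member promoters, 56.3% in all and 61.7% in other acetylated ones.

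ERR1 was found near most members in cold. At RT 49 of 78 loci (62.8%) had an ERR1 site, against 33.5% of other genes of similar locus length (within 10% of each member's own), and in cold 93.6% had one, against 55.9%. Members have active promoters, and the comparison narrows when that is matched: of genes of similar length that also had H3K27ac at the start in all 14 libraries, 56.8% had an ERR1 site at RT and 87.8% in cold. Within 1 kb of the start, 46.4% of the 69 members had an ERR1 site at RT and 87.0% in cold, against 34.8% and 72.0% of other acetylated starts. Genes of the respiratory chain, which the mitochondrial ribosome serves, stood at 87.8% and 97.6%, and cytosolic ribosomal protein genes at 13.1% and 63.9%. These are single libraries, so the shares have no replicate check.

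**Figure D1:**
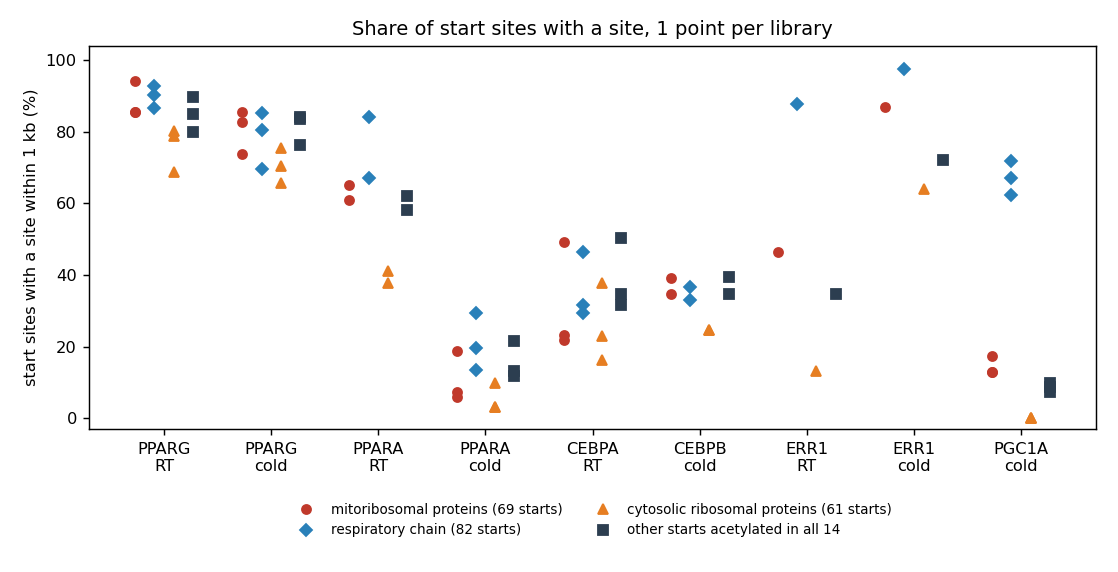
Share of start sites with a site of each factor within 1 kb (y axis, percent), 1 point per library, by target and temperature (x axis). Circles are the 69 mitochondrial ribosomal protein genes, diamonds 82 respiratory chain genes, triangles 61 cytosolic ribosomal protein genes and squares the other starts with H3K27ac in all 14 libraries; for PGC1A, the circles lie at 13% to 17.4%, between the triangles at 0 and the diamonds at 62.2% to 72.0%.

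Summits give a sharper view than overlap. Of the 69 starts, 31 had an ERR1 summit within 1 kb in both lists, 28 in cold alone, 0 at RT alone and 10 in neither. Among the 31, the deposited fold enrichment, which is the authors' value for each peak over its background, was higher in the cold list at 30 (96.8%), where it was higher at 2667 of all 2972 starts with a summit in both lists (89.7%). Ranked by the lower of the 2 values, the first 6 members were Mrps18b (30.9 at RT and 78.1 in cold), Mrpl39 (30.6 and 37.5), Mrps21 (22.5 and 48.1), Mrpl12 (20.9 and 35.2), Mrpl36 (19.1 and 39.1) and Mrpl47 (13.7 and 40.7), tied in that value with Mrps26 (13.7 and 16.8). They are of mixed role. Mrps18b is 1 of 3 homologues of a single bacterial small-subunit protein, Mrpl12 forms part of the stalk that recruits translation factors and has been reported to bind the mitochondrial RNA polymerase, Mrps21 and Mrpl36 have bacterial counterparts, and Mrpl39 is specific to mitochondria. The median over members with a summit was 10.1 at RT (31 members) and 9.60 in cold (59 members).

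**Figure D2:**
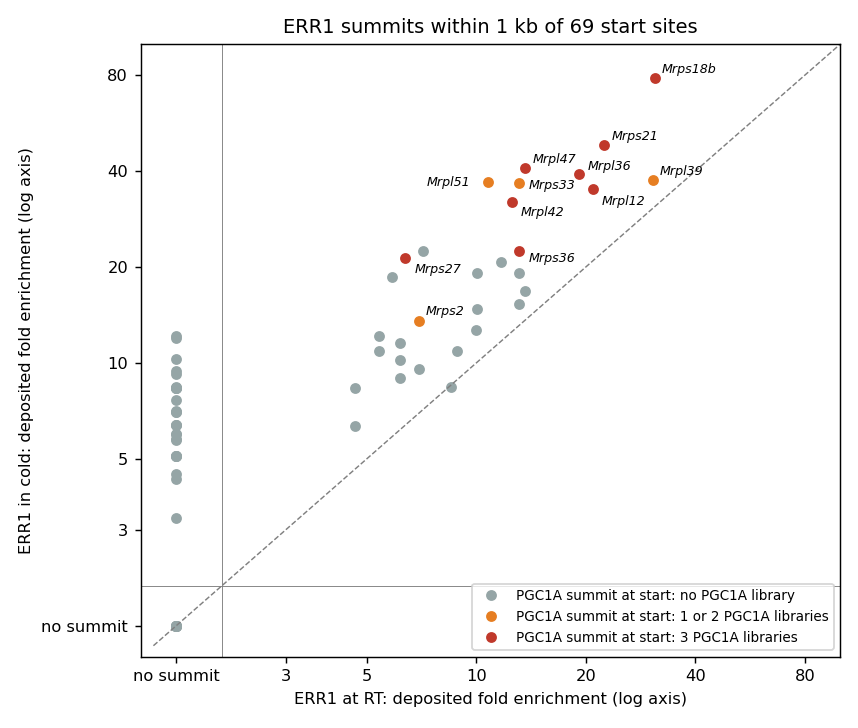
Deposited ERR1 fold enrichment of the strongest summit within 1 kb of each of 69 member starts at RT (x axis) and in cold (y axis), both log axes with a separate position for no summit; the dashed line marks equal values. Colour gives the number of PGC1A libraries with a summit at the same start: the 12 coloured points are all among the 31 with an ERR1 summit in both lists, and 30 of those 31 lie above the line, where 89.7% of all starts with a summit in both lists have the higher value in cold.

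The ERR1 list in cold was longer, so covered length (the base pairs of the locus under peaks, scaled to the total of each list, with 500 bp added before taking log2) was used to set the 2 lists side by side. By this measure 10 of 73 members with an ERR1 site had a cold value more than 1 higher on the log2 scale and 1 had a value more than 1 lower, where 11.2% of all loci were higher and 1.23% lower. The median was -0.038 for members and 0.271 for all loci. The 10 were Mrpl41, Mrpl49, Mrps11, Mrpl4, Mrps18a, Mrpl2, Mrpl14, Mrps25, Mrpl11 and Mrpl46, and the 1 lower was Mrps35. Mrpl49, for example, had 0 kb at RT and 1.17 kb in cold, and Mrpl47, with the longest ERR1 coverage in cold (4.41 kb), had 1.55 kb at RT and a scaled change of -0.095. With 1 library each there is no test, and the count was 29 without scaling, 5 at the start alone, 2 in the gene body and 0 with 2000 bp added in place of 500.

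PGC1A marked a small set of the members, at the same places as ERR1. In the 3 cold libraries 18, 15 and 22 of 78 loci had a PGC1A site (23.1%, 19.2% and 28.2%), against 10.6%, 9.25% and 11.7% of loci of similar length and 19%, 16.6% and 21.6% of those with an acetylated start. The third library, with its differing label, gave the highest share. Sites in all 3 libraries were found at 14 members, the same number as in the first and second alone, another 8 had a site in 1 or 2 libraries, 3 of them in the third alone, and 56 had none. Of 25 PGC1A sites at member loci, 17 (68.0%) lay within 1 kb of some gene's start, against 41.9% of H3K27ac sites and 50.5% of ERR1 sites at member loci. All 25 overlapped an ERR1 peak in the RT list and in the cold list, where 88.2% and 98.3% of all 3983 PGC1A sites did.

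At starts, 12 of 69 members had a PGC1A summit within 1 kb in at least 1 library: Mrps2, Mrpl47, Mrps21, Mrps33, Mrpl51, Mrpl42, Mrpl12, Mrpl36, Mrps27, Mrps36, Mrpl39 and Mrps18b. All 12 fell among the 31 members with an ERR1 summit in both lists (38.7% of those), and 0 of the 28 with ERR1 in cold alone had PGC1A. Over all genes with a start, the matching shares were 33.1% of 2972 and 1.7% of 3626. Respiratory chain starts with ERR1 in both lists had PGC1A at 61 of 72 (84.7%). Leaving out the third PGC1A library left 10 of the 12 members, all 10 with ERR1 in both lists. The PGC1A protein binds DNA through partner factors; the overlap here is of peak positions, counted and not tested.

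Among the 14 members with PGC1A in all 3 libraries, 8 had a summit within 1 kb of the member's own start. At Mrpl36 the summits lay 222 to 253 bp after the start with enrichments of 12.2, 9.85 and 11.3. At Mrpl12 they lay 157 to 241 bp after the start with 11.5, 8.72 and 11.1, at Mrps21 the enrichments were 11.1, 8.25 and 8.39, and at Mrps18b, with summits at -365, -347 and -337 bp, 9.33, 6.87 and 9.13. These 4 were close in level, with the second library lowest at each; its list was also the shortest.

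Several of the 14 had their site at or near the start of another gene. The strongest PGC1A site of any member locus, at 15.6 to 21.7 enrichment, was in the locus of Mrps17, a core small-subunit protein, but 339 bp from the start of Nipsnap2, which encodes a mitochondrial protein. The site at Mrpl35 was 629 bp from the start of Immt, a protein of the cristae junction, and that at Mrpl58, the release factor that rescues stalled mitochondrial ribosomes, was 20 bp from the start of the ATP synthase subunit gene Atp5h. Mrps36 had 2 sites in all 3 libraries, one with summits 389 to 511 bp after its start (5.37 to 9.57) and a stronger one 4250 bp before it (11 to 16.3). Its product is now known as a subunit of the 2-oxoglutarate dehydrogenase complex. Mrps27, a pentatricopeptide protein of the small subunit, also had 2, one in the promoter it shares with Ptcd2 (3.55 to 5.02) and one 8660 bp inside its own gene (7.07 to 10.3). At Mrps23 and Mrps24 the site lay 11.07 kb and 5.25 kb from the start, and at Mrps35, which has no listed start, in the gene body. Mrpl47 had the longest PGC1A coverage of any member, 1.38, 1.52 and 1.304 kb, with summits 212 bp inside the gene in one library and at -321 and -352 bp, at the start of Ndufb5, in the other two. By symbol, PGC1A sites were at 16.3%, 12.2% and 20.4% of Mrpl loci and 34.5%, 31.0% and 41.4% of Mrps loci, a description on 49 and 29 genes with no test, in which Mrps36 and Mrps18a count as Mrps though neither product is placed in the small subunit.

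PPARG sat at nearly every member. At RT 92.3%, 98.7% and 96.2% of loci had a site, and in cold 87.2%, 96.2% and 92.3%, against 53.5% to 61.4% of loci of similar length but 87.1% to 95.3% of those with an acetylated start. At starts, members (73.9% to 94.2% across the 6 libraries) and other acetylated starts (76.3% to 89.7%) had overlapping ranges. Members were above them in RT library 2 (94.2% against 89.7%), RT library 3 (85.5% against 80.02%) and cold library 2 (85.5% against 83.7%). They were below them in cold library 1 (73.9% against 76.3%) and cold library 3 (82.6% against 84.1%). RT library 1 was close (85.5% against 85.1%), and no difference was tested. PPARG coverage was longest at Mrps6 in both conditions, with 5.69, 6.78 and 6.12 kb at RT and 2.79, 4.39 and 4.56 kb in cold. The locus of this small-subunit gene is long (73.89 kb) and overlaps Slc5a3, an inositol transporter gene. Its strongest PPARG site (35.2 to 42.8 enrichment in 6 of 6 libraries) lay 47.52 kb inside it. At the other end, Mrpl44, a protein with a ribonuclease fold, had a PPARG site in 1 of 3 RT libraries (0.474 kb), and in 3 of 3 cold libraries (0.294, 0.345 and 0.486 kb). Mrpl3, which lies near the catalytic centre of the large subunit, had 0.317 to 0.451 kb at RT and none in the 3 cold libraries (limma adjusted p = 0.0767).

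PPARA was read at most members at RT and few in cold. Sites were at 76.9% and 73.1% of loci at RT, against 76.4% and 73.0% of loci of similar length with an acetylated start, and at 30.8%, 19.2% and 16.7% in cold, against 39.6%, 27.7% and 25.8%. The cold lists held fewer peaks, and the loci of similar length fell too. A PPARA site in all 5 libraries was found at 8 members: Mrps28, Mrpl20, Mrps17, Mrps33, Mrpl35, Mrpl36, Mrps36 and Mrps6. Mrps36 was the highest in cold, at 1.08, 1.01 and 1.35 kb, with a site 4220 bp before its start of 18.7 to 29.4 enrichment in 5 of 5 libraries, near the stronger PGC1A site (4250 bp before) and the strongest PPARG site (4133 bp before, 33.6 to 51.7). At the other extreme 11 members had no PPARA site in any library, among them Mrps12, a protein of the decoding centre, and Mrps21.

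CEBPA was seen at 48.7%, 53.8% and 69.2% of member loci at RT and CEBPB at 62.8% and 70.5% in cold, against 56.6%, 59.2% and 71.6%, and 64.6% and 69.3%, of loci of similar length with an acetylated start. The third CEBPA list, the longest of its group, gave the high value. At starts CEBPA was at 21.7%, 23.2% and 49.3% of members and 31.7%, 34.6% and 50.4% of other acetylated starts. It was at 27.9%, 30.2% and 58.1% of Mrpl and 11.5%, 11.5% and 34.6% of Mrps starts. Mrps6 had the longest coverage of both factors, 3.12 to 3.99 kb for CEBPA and 3.67 and 3.90 kb for CEBPB.

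**Figure D3:**
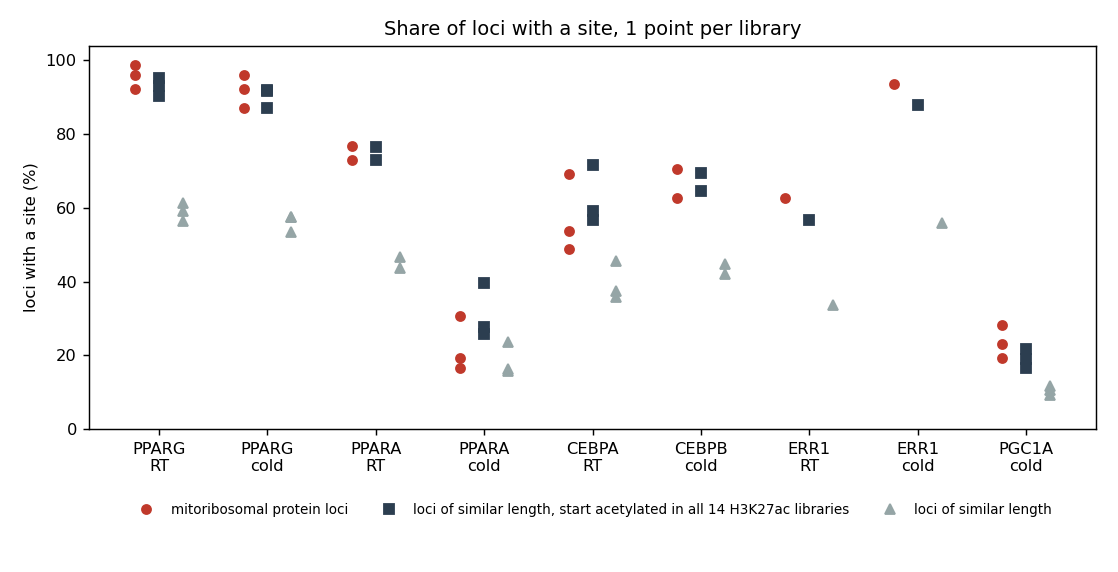
Share of loci with a site (y axis, percent), 1 point per library, by target and temperature (x axis): the 78 mitochondrial ribosomal protein loci (circles), loci of similar length with H3K27ac at the start in all 14 H3K27ac libraries (squares) and loci of similar length (triangles). The circles lie above the triangles in every library, by the least for PPARA in cold (16.7% against 15.6%). They lie below the squares for PPARA in cold, for CEBPA, in PPARG RT library 1 and in CEBPB cold library 1. For PGC1A the circles are at 19.2% to 28.2% and the squares at 16.6% to 21.6%.

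Put together over the 6 factors, 18 members had sites of all 6 in at least 1 library, 34 of 5, 11 of 4, 8 of 3, 5 of 2 and 2 of 1. The 2 with PPARG alone were Mrpl32 and Mrpl57. Every one of the 21 factor libraries had a site at Mrpl35, Mrpl36 and Mrps17. No member lacked all 6 factors. The same counts were not made over all loci or over loci with an acetylated start, so these are a description. In single libraries, PPARG was at 87.1% to 95.3% of loci of similar length with an acetylated start. The fewest libraries, 4 of 21, were at Mrps22, whose human counterpart is a combined oxidative phosphorylation deficiency gene: PPARG at 0, 0.604 and 0.507 kb at RT and 0.401 kb in 1 cold library, and CEBPA at 0.313 kb in 1 library. Mrps16, another such disease gene, had PPARG in 6 of 6 libraries (0.612 to 1.25 kb) and ERR1 in both (0.452 and 1.21 kb). It had PPARA in both RT libraries (0.287 and 0.94 kb) and no PGC1A, CEBPA or CEBPB site. Of the 3 homologues of a single bacterial protein, Mrps18b had sites of all 6 factors. Mrps18c had little: PPARG at 0 to 0.824 kb, and at RT PPARA at 0.354 and 0.411 kb. It also had CEBPA at 0.419 kb in 1 library and ERR1 at 0.239 kb in cold. Mrps18a, which sits in the large subunit in spite of its symbol, had PPARG and PPARA at RT as its main sites. Its ERR1 coverage was 0.869 kb in cold.

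Other proteins of known role showed mixed occupancy. Mrpl12, the stalk protein, had PPARG at 3.14, 2.64 and 2.39 kb at RT and 0.845, 2.53 and 2.32 kb in cold, ranges that overlap. Mrpl58, the rescue factor, had PPARG at 2.34, 3.94 and 2.21 kb at RT and 1.96, 2.92 and 3.11 kb in cold, and had sites of all 6 factors. Mrps12, of the decoding centre, had PPARG at 0.850, 1.01 and 0.858 kb at RT and 0.428, 0.785 and 0.909 kb in cold. Its ERR1 coverage was 0.208 kb at RT and 1.17 kb in cold, CEBPB was at 0.617 and 0.726 kb, and there was no PPARA, CEBPA or PGC1A site. None of the 3 passed the PPARG test between temperatures.

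**Figure D4:**
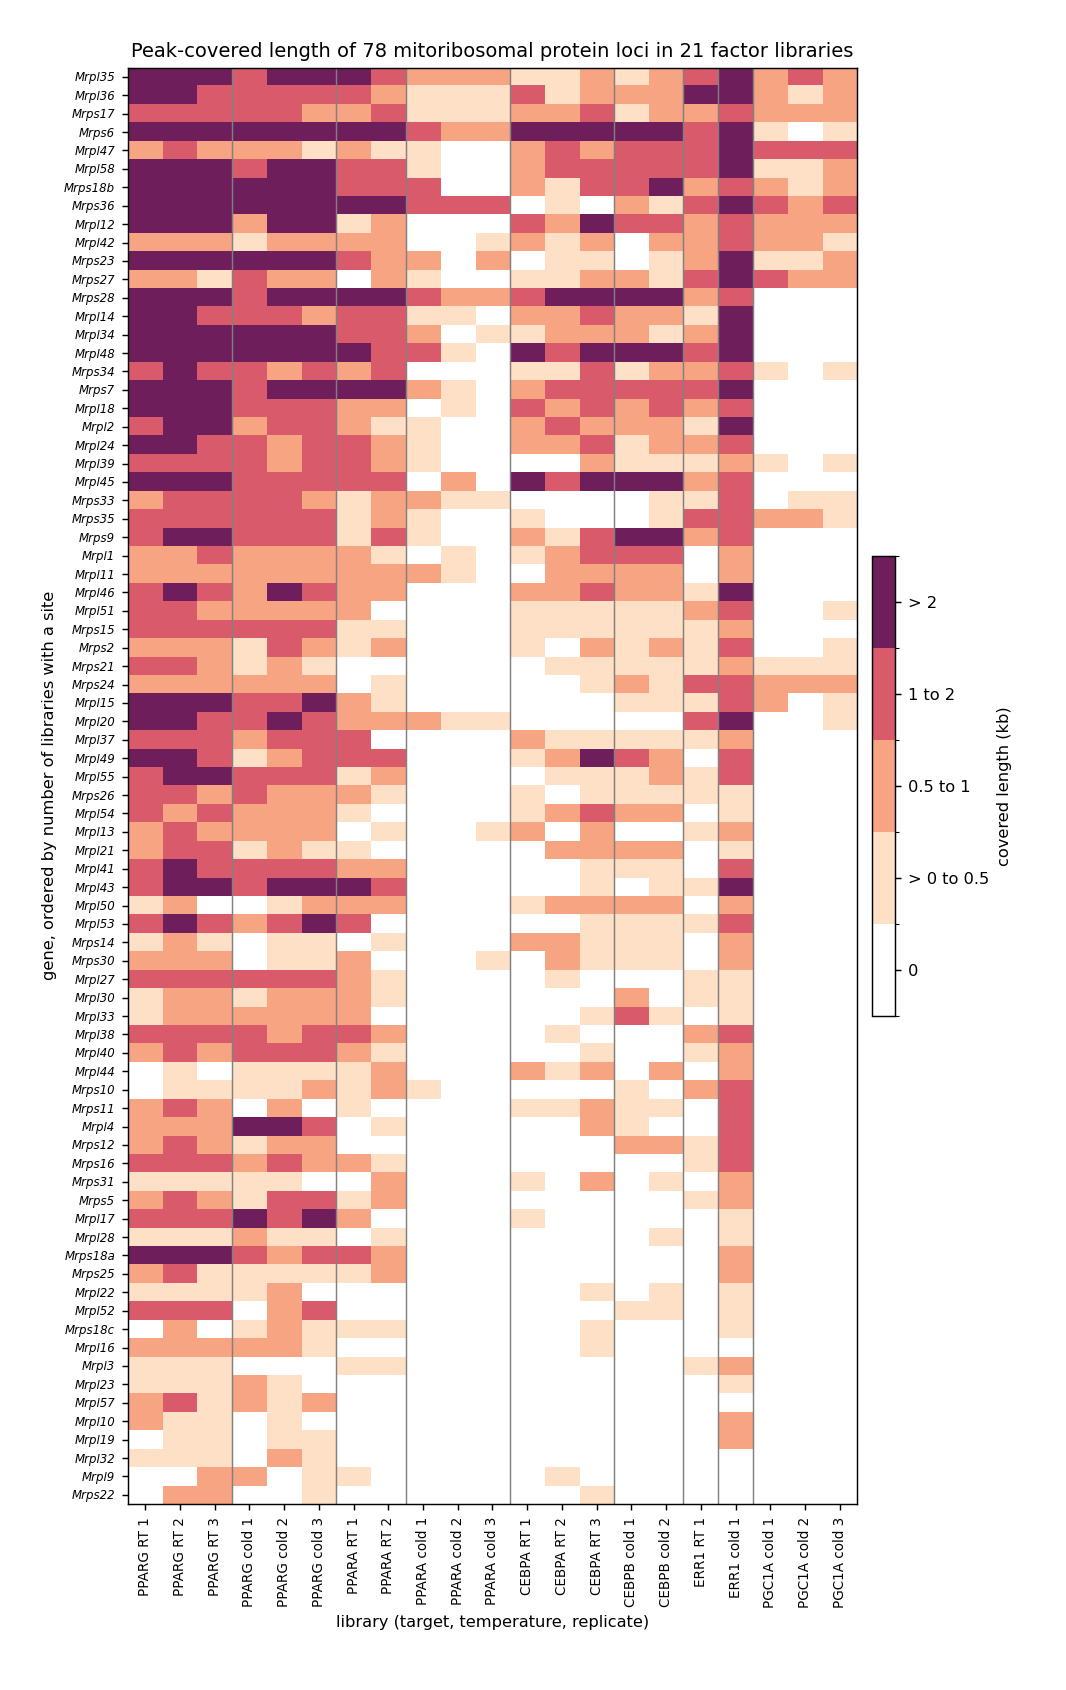
Peak-covered length of the 78 loci (rows, ordered by the number of libraries with a site) in the 21 factor libraries (columns), in 5 classes from 0 to over 2 kb (colour). Mrpl35, Mrpl36 and Mrps17 at the top have a site in all 21, the 56 loci without PGC1A are white in the last 3 columns, and Mrps22 at the bottom has a site in 4.

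H3K27ac was at all 78 loci in all 14 libraries, against 59.3% to 65.0% of loci of similar length. In the WT cohort at RT a member locus carried a mean of 3.57, 3.21 and 3.45 kb, more than the 2.88, 2.56 and 2.78 kb at loci of similar length and less than the 5.27, 4.73 and 5.10 kb at those with an acetylated start. TXNIP KO libraries in cold had 4.79 and 4.66 kb, against 4.20 and 3.88 kb and 7.39 and 6.96 kb. At RT, TXNIP KO libraries had 3.54 and 4.08 kb at members. TXNIP WT libraries had 3.93 and 3.72 kb at RT and 4.15 and 4.30 kb in cold. The KO lists in cold covered 108.07 and 102.21 Mb in all, against 60.45 to 70.32 Mb in the WT cohort at RT. The shortest H3K27ac coverage was at Mrps22 in each of the 6 groups (0.671 to 0.951 kb over the 14 libraries). Mrps7, of the small-subunit head, was longest in the WT cohort at RT (12.84 ± 1.42 kb, SD, n = 3) and Mrps18b in TXNIP KO mice in cold (13.66 ± 0.451 kb, SD, n = 2).

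Cold changed PPARG coverage at few members. On the same scale of covered length, limma with Benjamini-Hochberg adjustment over 14102 loci called 2 members higher and 2 lower in cold of 78 tested, where 5.05% of all loci were higher and 5.13% lower (10.2% either way). The medians were -0.018 for members and 0.030 for all loci. The higher ones were Mrpl4, a protein lining the exit tunnel, and Mrpl17. The lower ones were Mrpl49 and Mrps18a. Without scaling to list totals, all loci split 155 higher to 1346 lower in place of 712 to 724, and members 1 to 4.

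Mrpl4 (chromosome 9, 21001252 to 21008839) had 0.831, 0.995 and 0.885 kb of PPARG peaks at RT and 2.05, 3.00 and 1.45 kb in cold. The groups did not overlap, and the log2 change was 1.14 (SE 0.219, adjusted p = 0.0183). The site in its own gene body was in 6 of 6 libraries. The gain was a site 3.15 kb outside the gene body and 3949 bp from the start of the neighbouring Icam1, a cell adhesion gene of endothelial and immune cells, present in 3 of 3 cold and 0 of 3 RT libraries with an enrichment of 10.1 to 12.9, and one 55 bp from the Icam1 start in 2 cold libraries. Beside this, the summed PPARG coverage of 7 endothelial markers was 16.41 to 20.54 kb at RT and 29.10 to 34.65 kb in cold, with 5 of 6 tested markers called higher, 0 lower, and Emcn at 0 in cold. Its part in the Mrpl4 result was not tested.

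Mrpl17 had 1.06, 1.5 and 1.16 kb at RT and 2.07, 1.75 and 2.17 kb in cold, all cold values above all RT values (log2 change 0.79, SE 0.159, adjusted p = 0.0214). The start site was occupied in 6 of 6 libraries, and further sites lay 2752 bp from the start (3 cold, 1 RT) and 4172 bp from it (2 cold, 0 RT). Mrpl49 (chromosome 19, 6053630 to 6057755) had 3.11, 3.11 and 1.90 kb at RT and 0.380, 0.693 and 1.21 kb in cold, again without overlap (log2 change -1.15, SE 0.236, adjusted p = 0.0232). There, 4 sites were each in 3 RT libraries and 1 cold library: 82 bp before its own start, 5071 bp past the start in Syvn1, 461 bp from the Syvn1 start and 188 bp from the Znhit2 start. Mrps18a (chromosome 17, 46111004 to 46128908) had 2.95, 2.37 and 2.49 kb at RT and 1.08, 0.645 and 1.12 kb in cold (log2 change -0.85, SE 0.211, adjusted p = 0.0406), and the sites 13.53 and 16.96 kb from its start, shared with the overlapping Rsph9, were in 3 RT and 0 cold libraries.

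These 4 calls were at the edge of the threshold. With 1 library left out at a time, Mrpl4 passed without cold replicate 3 (adjusted p = 0.013) and had 0.056 to 0.085 without any of the other 5, Mrpl17 passed without cold replicate 2 (0.028; others 0.0586 to 0.091), Mrpl49 passed without cold replicate 3 (0.0195; others 0.0552 to 0.107), and Mrps18a passed in none of the 6 (0.0515 to 0.155). Within 1 kb of the start limma called 0 members (3 at an unadjusted p under 0.05) and 0 of 8106 loci.

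PPARA coverage was called lower in cold at many members, as at many loci. Of 53 members tested, 23 were lower and 1 higher in cold, where 31.1% of all 10229 loci were lower and 4.21% higher (35.3% either way). A locus was tested when at least 2 of the 5 libraries had a site. Each of the 23 had a site in both RT libraries and in no cold library, so they had to differ and are given as a description. The 8 with the largest change were Mrpl43 (-1.66), Mrpl49 (-1.32), Mrps18a (-1.15), Mrps34 (-1.11), Mrpl38 (-0.91), Mrpl41 (-0.90), Mrpl46 (-0.86) and Mrpl50 (-0.76), all on the log2 scale with limma adjusted p from 0.000655 to 0.0223. Mrps34 lost its call without any 1 of the 3 cold libraries (0.0554 to 0.0663). With lists cut to equal length, 2 of 17 tested were lower. Unscaled, all loci split 8 higher to 6850 lower, in place of 431 to 3183, and the median over all loci was -1.09 in place of -0.44.

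The 1 member called higher, Mrpl20, had 0.759 and 0.616 kb at RT and 0.739, 0.495 and 0.442 kb in cold, a raw length that did not rise. Its single site, 156 bp from the start of Ccnl2, a cyclin gene of splicing bodies, was in 5 of 5 libraries. The log2 change of 0.89 (SE 0.208, adjusted p = 0.0293) is relative to the shorter cold lists, was 0.21 with lists of equal length (adjusted p = 0.542), and was -0.17 without scaling. Without cold replicate 2 the adjusted p was 0.0737 and without cold replicate 3 it was 0.0595.

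H3K27ac in the WT cohort was called higher in cold at 2 of 78 members and lower at 3, where 5.4% of 15160 loci were higher and 6.55% lower (11.9% either way). The medians were 0.008 for members and 0.027 for all loci. Without scaling, all loci split 184 higher to 829 lower in place of 818 to 993, and members 0 to 2. The higher members were Mrpl4 and Mrpl17, which were also the 2 called higher for PPARG. The share of all loci called higher for both was not counted, and both PPARG calls were at the edge of the threshold. The lower ones were Mrpl46, Mrpl18 (which binds the structural RNA of the central protuberance) and Mrps6.

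At Mrpl4, H3K27ac covered 3.78, 4.26 and 4.63 kb at RT and 6.17, 4.78 and 6.31 kb in cold (log2 change 0.49, SE 0.101, adjusted p = 0.0101), with no overlap. Its 2 sites in all 14 libraries were in its own gene body and 162 bp from the Icam1 start. The other cohorts had 6.22 and 5.83 kb at RT and 9.02 and 8.94 kb in cold in TXNIP WT mice (adjusted p = 0.0712), and 5.28 and 6.14 kb and 9.14 and 8.21 kb in TXNIP KO mice (adjusted p = 0.293). Endothelial markers summed to 115.72 to 148.22 kb at RT and 155.45 to 178.15 kb in cold in the WT cohort, with 3 of 7 called higher, 0 lower and none at 0. Its part in the result was not tested. Mrpl17 had 5.04, 4.83 and 6.74 kb at RT and 6.53, 7.33 and 8.14 kb in cold, ranges that overlap (0.48, SE 0.119, adjusted p = 0.0241).

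Mrpl46 and Mrpl18 were called lower in cold in each of the 3 H3K27ac cohorts. Of all loci, 6.55%, 2.39% and 6.49% were lower in the WT cohort, TXNIP WT and TXNIP KO mice, each taken singly. The share lower in all 3 was not counted, and the 3 comparisons come from 1 fit with a shared estimate of the spread. Mrpl46 fell from 2.64, 2.07 and 2.10 kb to 1.36, 1.23 and 1.42 kb in the WT cohort (log2 change -0.54, SE 0.094, adjusted p = 0.00431), from 2.54 and 2.34 kb to 1.66 and 1.56 kb in TXNIP WT mice (-0.57, adjusted p = 0.0147) and from 2.43 and 2.38 kb to 1.88 and 2.01 kb in TXNIP KO mice (-0.55, adjusted p = 0.0122). No cold value reached an RT value of its cohort. Unscaled, Mrpl46 was called in the WT cohort (-0.59, adjusted p = 0.00514) and in TXNIP WT mice (-0.48, 0.0321) but not in TXNIP KO mice (-0.25, 0.115), and Mrpl18 in the WT cohort (-0.52, 0.014) but not in TXNIP WT (-0.41, 0.0744) or TXNIP KO mice (-0.31, 0.0835). The site at the promoter it shares with Mrps11 was in all 14 libraries. What differed was a site 17.03 kb from its start, past the end of the gene, in 7 of 7 RT and 2 of 7 cold libraries, both from TXNIP KO mice. PPARG had a site close by, 17.57 kb from the start, in 6 of 6 libraries. Mrpl18 fell from 5.07, 4.06 and 5.15 kb to 3.45, 2.79 and 3.22 kb in the WT cohort (-0.45, SE 0.095, adjusted p = 0.0111), from 6.12 and 6.13 kb to 4.68 and 4.28 kb in TXNIP WT mice (-0.53, adjusted p = 0.0218) and from 6.78 and 7.104 kb to 5.84 and 5.19 kb in TXNIP KO mice (-0.66, adjusted p = 0.00603). Its sites, at the promoter it shares with the chaperonin gene Tcp1 and 10.7 kb from the Tcp1 start in Acat3, an acetyl-CoA acetyltransferase gene, were in all 14 libraries. The responses differed between TXNIP WT mice and the WT cohort by -0.03 at Mrpl46 (SE 0.149, adjusted p = 0.958) and -0.08 at Mrpl18 (SE 0.150, adjusted p = 0.864).

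The WT cohort calls of Mrpl4, Mrpl46 and Mrpl18 held with any 1 of its 6 libraries left out (adjusted p of 0.0102 to 0.0385, 0.00519 to 0.0236 and 0.00986 to 0.0494). Mrpl17 lost its call when cold replicate 2 (0.104) or 3 (0.0776) or RT replicate 1 (0.101) or 2 (0.0822) was dropped. Mrps6, with 8.92, 7.02 and 6.69 kb at RT and 5.67, 5.05 and 5.43 kb in cold (-0.36, SE 0.094, adjusted p = 0.0298), lost it without the same 4 libraries (0.0805, 0.107, 0.122 and 0.0904). Each of these 4 left 3 members called. Within 1 kb of the start, limma called 0 members in this cohort, and the Mrpl18 change there was 0.077 and in the gene body 0.022, of the opposite sign to that over the whole locus.

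**Figure D5:**
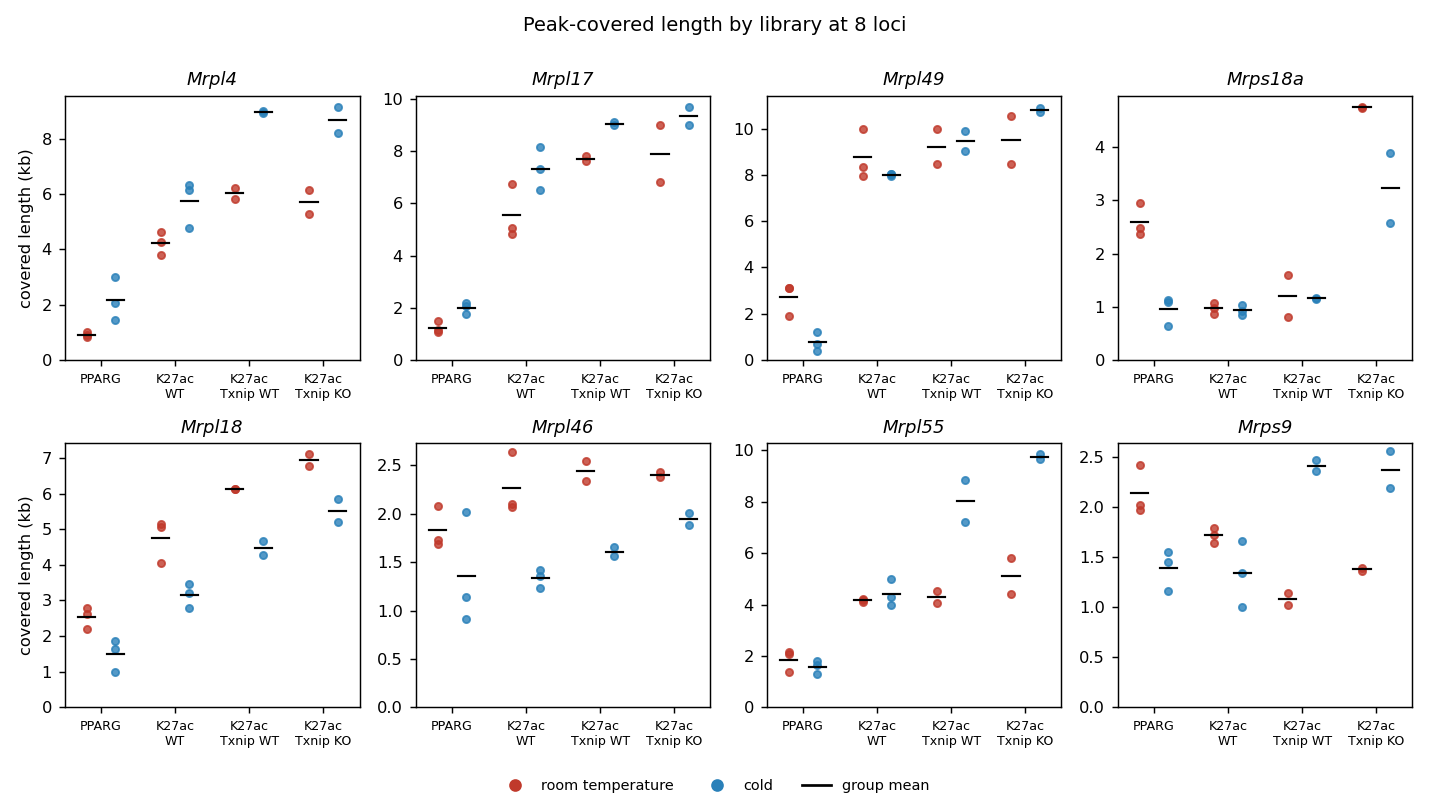
Peak-covered length (y axis, kb, from 0) at 8 member loci for PPARG and for H3K27ac in 3 cohorts (x axis); each point is 1 library, red at room temperature and blue in cold, and bars are group means. Mrpl46 and Mrpl18 are lower in cold in each H3K27ac cohort, while H3K27ac at Mrps18a is at 0.807 to 1.59 kb outside TXNIP KO mice and at 4.74 and 4.76 kb in TXNIP KO mice at RT.

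In TXNIP WT mice 2 members were higher in cold (Mrps9 and Mrpl55) and 2 lower (Mrpl46 and Mrpl18), where 4.54% of loci were higher and 2.39% lower (6.93% either way). Unscaled, all loci split 849 to 172 in place of 688 to 362, and members 3 to 1. Mrps9, of the small-subunit head, had 1.02 and 1.14 kb at RT and 2.48 and 2.36 kb in cold (log2 change 0.765, SE 0.156, adjusted p = 0.0152), with a second site 8.67 kb inside the gene. Over both TXNIP cohorts that site was in 4 of 4 cold and 0 of 4 RT libraries, and in the WT cohort in 1 of 3 cold and 3 of 3 RT libraries. Its WT cohort change was -0.23 (adjusted p = 0.289), and the difference between the 2 cohorts' responses was 1.00 (SE 0.202, adjusted p = 0.0616). Mrpl55, specific to mitochondria, had 4.55 and 4.08 kb at RT and 8.85 and 7.20 kb in cold (0.69, adjusted p = 0.0127), with an added site 15.99 kb away in Arf1, a membrane traffic gene. That site was in 7 of 7 cold and 1 of 7 RT libraries over the cohorts.

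Each of these 4 calls depended on single libraries. Mrps9 and Mrpl55 kept theirs without cold replicate 2 (0.0471 and 0.0106) and lost them when cold replicate 1 (0.104 and 0.083) or RT replicate 1 (0.112 and 0.0712) or 2 (0.0526 and 0.077) was dropped. Mrpl18 and Mrpl46 kept theirs without cold replicate 1 (0.0333 and 0.0372) and lost them when cold replicate 2 (0.125 and 0.0846) or RT replicate 1 (0.0651 and 0.0741) or 2 (0.136 and 0.0812) was dropped. The count of members called was thus 2 without either cold replicate and 0 without either RT replicate.

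In TXNIP KO mice 1 member was higher in cold (Mrpl55) and 4 lower (Mrpl18, Mrpl46, Mrps7 and Mrps18a), where 7.73% of loci were higher and 6.49% lower (14.2% either way). The medians were -0.104 for members and -0.029 for all loci. The direction rests on scaling: unscaled, the median over all loci was 0.30, all loci split 4293 higher to 130 lower in place of 1172 to 984, and members 17 to 0. Within 1 kb of the start, 33 of 69 members and 5091 of 9969 loci were called lower relative to the list totals. Raw coverage of that window had a median over members of 1425 and 1511 bp at RT and 1571 and 1566 bp in cold, so it did not fall. Peaks filled the whole window at 9 and 12 members at RT and at 16 and 14 in cold, where coverage cannot rise further. The part of scaling and of full windows in these start calls was not tested. Mrpl55 had 4.42 and 5.82 kb at RT and 9.85 and 9.66 kb in cold (0.51, adjusted p = 0.0312). Mrps7 had 12.50 and 13.97 kb at RT and 14.16 and 10.23 kb in cold, ranges that overlap (-0.50, adjusted p = 0.0458). The 6 macrophage markers summed to 11.44 to 18.84 kb at RT and 26.80 to 51.13 kb in cold in this cohort, with 2 of 6 called higher, 0 lower and none at 0. The 7 endothelial markers summed to 163.20 to 185.69 kb at RT and 193.64 to 197.93 kb in cold, with 0 called higher, 3 lower relative to the list totals (Sox18, Emcn and Pecam1) and none at 0. The part of either in these results was not tested.

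Calls in this cohort changed with single libraries. Mrpl55 lost its call without any 1 of the 4 (0.0536 to 0.177). Mrps7 kept its call without cold replicate 1 (0.0467) and lost it when cold replicate 2 (0.226) or RT replicate 1 (0.22) or 2 (0.0849) was dropped. Mrpl46 lost it without cold replicate 1 (0.0646) or RT replicate 1 (0.101), Mrps18a without the same libraries (0.161 and 0.16), and Mrpl18 without RT replicate 1 (0.0532). The count of 5 became 0 without RT replicate 1 and 3 without cold replicate 1.

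Mrps18a was the 1 member that differed between TXNIP KO and TXNIP WT mice. At RT its H3K27ac coverage was 4.76 and 4.74 kb in KO and 1.59 and 0.807 kb in WT mice. It was 0.865 to 1.07 kb in the WT cohort, whose peaks were narrower. The log2 difference was 1.72 (SE 0.209, adjusted p = 0.0147), where 0.0132% of loci were called higher and 0.066% lower (0.0792% either way). In cold it had 2.57 and 3.88 kb in KO and 1.16 and 1.15 kb in WT mice (0.955, adjusted p = 0.0684). The promoter site was in all 14 libraries. KO libraries alone had a site 13.1 kb from the start (2 RT) and one at 17 kb (2 RT, 2 cold), over the 2 PPARG sites that WT mice had in 3 RT and 0 cold libraries. The cold response in KO mice was -0.85 (adjusted p = 0.0238), and its difference from TXNIP WT mice was -0.76 (SE 0.295, adjusted p = 0.473). The call between genotypes was lost without KO RT replicate 1 (0.0769) or WT RT replicate 2 (0.0575). It was lost as well when the TXNIP cohorts were fitted alone and when the replicate number was a block.

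In cold, limma called 0 of 78 members between genotypes (7 at an unadjusted p under 0.05), where 0.33% of loci were called higher and 0.112% lower (0.442% either way). The largest differences by p were Mrps18a, Mrps15 (0.76, adjusted p = 0.0778), Mrps5 (-0.32, 0.207) and Mrps11 (-0.30, 0.211). Mrps15 is an rRNA-binding small-subunit protein with a bacterial counterpart. It had 4.10 and 3.10 kb in KO and 1.18 and 2.15 kb in WT mice in cold, without overlap, and a weak site 113 bp from the start of the neighbouring Oscp1 in 3 KO libraries and 1 TXNIP WT library. Neither interaction gave a member call. Between TXNIP KO and TXNIP WT responses 3 members had an unadjusted p under 0.05 and the lowest adjusted p was 0.459, where 0.0264% of loci were called higher and 0.0066% lower (0.033% either way). Between TXNIP WT and the WT cohort 7 had an unadjusted p under 0.05 and the lowest adjusted p, at Mrps9, was 0.0616, where 0.178% of loci were called higher and 0.0462% lower (0.224% either way).

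For PPARG, few of the other genes that build and feed the mitochondrial translation system were called between temperatures: limma called 0 of 10 mitochondrial translation factors, 0 of 19 mitochondrial aminoacyl-tRNA synthetases and 0 of 8 genes of mitochondrial DNA transcription and copy. It called 1 of 20 ribosome assembly genes (Ngrn, higher) and 1 of 5 mitoribosome genes outside the symbol rule (Ptcd3, lower). Of 75 cytosolic ribosomal protein genes, 1 was higher (Rpl3) and 1 lower (Rps24). All these are against 10.2% of loci called either way.

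For PPARA these genes were called lower in cold more often, as were loci in general (31.1%). The lower ones were 5 of 8 tested translation factors (Mrrf, Mtif3, Tufm, Mtfmt and Gfm2), 6 of 13 synthetases, 3 of 7 genes of mitochondrial DNA transcription and copy (Polg, Polrmt and Tefm), 3 of 5 mitoribosome genes outside the symbol rule (Aurkaip1, Gadd45gip1 and Chchd1), 1 of 10 assembly genes (Dhx30) and 24 of 52 cytosolic ribosomal protein genes. Cars2, the mitochondrial cysteinyl-tRNA synthetase gene, was the 1 called higher. As for the members, a gene with a site in both RT libraries and in no cold library was tested and had to differ. How many of the lower calls were of this kind was not counted, so they are given as a description.

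For H3K27ac in the WT cohort, 5.4% of all loci were called higher and 6.55% lower. Of cytosolic ribosomal protein genes, 7 of 78 were higher and 2 lower (Rpl7 and Rpl11). Of the synthetases 2 of 19 were higher (Wars2 and Cars2) and 2 lower (Iars2 and Gars), and of assembly genes 1 of 22 was higher (Mpv17l2). The median log2 change of 95 respiratory chain genes was 0.023 in the WT cohort, against 0.027 over all loci, 0.124 in TXNIP WT mice, against 0.010, and 0.092 in TXNIP KO mice, against -0.029. Cars2 was called higher in each of the 3 cohorts, and Tsfm, an elongation factor gene, lower in both TXNIP cohorts. Over all loci, 4.54% were higher and 2.39% lower in TXNIP WT mice, and 7.73% and 6.49% in TXNIP KO mice. These lists share the libraries, and often the loci, of the members, and no difference between lists was tested.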

How the data were processed

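ChIP-seq peak lists of 35 libraries were used. Per the submitters' processing notes, the build was GRCm38.p6 and the tools were MACS2 2.2.7.1, BWA 0.7.17, deepTools 3.4.3, Trim Galore 0.6.0 and SAMtools. Settings: not given in the sources used here. Each deposited list gives, per peak, a score, a fold enrichment over background and −log10 p and q values, all made by the authors, and peaks were called per sample as deposited. Read depth is unknown from these lists, so no counting interval is given.

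Members and gene lists were chosen with earlier results of these data known. Peaks were intersected (at least 1 bp) with gene bodies plus 10 kb each side for 21627 loci. A start is the most upstream listed RefSeq start inside the gene body (69 of 78 members). Similar loci are within 10% of a member's length. The covered length was scaled to the list total and tested as log2 (covered bp + 500) with limma 3.58.1 (R 4.3.3, trended variance) over loci with a site in as many libraries as the smallest group, and p-values were adjusted by Benjamini-Hochberg over all tested loci. PPARG, PPARA and the 14 H3K27ac libraries were fitted separately, and the fit was tested on simulated data. Named are members called (up to 8 per direction and comparison, and where none was called the 2 smallest p per direction), those with PGC1A in every library, the first 6 by the lower of the RT and cold ERR1 enrichments, 10 key members, and the highest and lowest per target. Alternatives changed the scaling, filter, window, added length, peak threshold (−log10 q of at least 5) and libraries. Python 3.11.15 with numpy 2.4.6, pandas 2.3.3 and matplotlib 3.10.9 was used otherwise. The 17 inputs were not analysed here.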

Additional observations from a re-analysis of the deposited data

How the results depend on the processing

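The measure is peak length, so it depends on how many peaks a list holds, and neighbours share loci. The number of members called was 4 for PPARG, and 1 without a filter on low values, 0 within 1 kb of the start and 0 to 2 with 1 library left out. For PPARA it was 24, and 37 without scaling, 2 with lists of equal length and 19 to 33 with 1 library left out. For H3K27ac in the WT cohort it was 5, and 2 without scaling, 3 without a filter, 2 in the gene body, 0 at the start and 3 to 6 with 1 library left out. In TXNIP WT mice it was 4, and 2 in the gene body, 0 at the start, 2 when the TXNIP cohorts were fitted alone and 0 to 2 with 1 library left out. In TXNIP KO mice it was 5, and 17 without scaling, 2 without a filter, 33 at the start, 2 when fitted alone and 0 to 6 with 1 library left out. Between genotypes it was 1 at RT, and 0 at the start, 0 when fitted alone and 0 to 1 with 1 library left out; in cold it was 0, and 1 without scaling, 1 in the gene body and 0 to 2 with 1 library left out. The KO interaction gave 0, and 1 with lists of equal length and 0 with any 1 library left out, and the cohort interaction 0, and 1 without scaling, 1 in the gene body and 0 to 1 with 1 library left out.

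Correlations of same-numbered samples were from -0.201 to 0.106. In the WT cohort they were 0.106, 0.0911 and 0.068, against -0.155 to 0.0657 for unlike numbers. In groups of 2 the values mirror each other (-0.201 and 0.201 in TXNIP KO mice), so they cannot decide whether the numbers pair the samples. With the replicate number as a block, 2 members were called in TXNIP WT mice, 3 in TXNIP KO mice and 0 between genotypes at RT; the PPARG count stayed 4, the WT cohort count was 6 and PPARA gave 23, with Mrpl20 no longer called (adjusted p = 0.139). With the numbers of the TXNIP cohorts crossed, which was chosen after seeing the data, 5 and 6 were called.

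The mean share of member loci with a site exceeded that of loci of similar length by 36.3 percentage points for PPARG (32.1 with stricter peaks, 40.033 at the start, 30.8 against all other loci, 2.18 against loci with an acetylated start, a background added after seeing the data). For PPARA it was 14.2, and -5.18 against acetylated starts. For PGC1A it was 12.989 (8.48 in the gene body, 4.43 against acetylated starts) and for ERR1 33.5 (5.91 against acetylated starts). For CEBPA it was 17.5 (8.38 stricter, 10.0 gene body, 10.3 start, 10.4 all, -5.17 acetylated), for CEBPB 23.2 (18.9, 13.4, 16.6, 15.8 and -0.310) and for H3K27ac 38.2 (39.9, 45.2, 45.7, 33.6 and 0). With 1 library left out the ranges were 35.6 to 36.9 for PPARG, 10.1 to 17.4 for PPARA, 11.2 to 14.5 for PGC1A, 14.5 to 19.9 for CEBPA, 20.7 to 25.8 for CEBPB and 38.0 to 38.5 for H3K27ac. The ERR1 count of 10 is given with its alternatives in the text: 29, 0, 2 and 5.

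Of 415 alternative values of named members, 278 kept the direction and stayed called or not called as in the main fit. Another 120 kept the direction but lost the call, 5 gained one and 12 changed sign. The 278 include values of members named between genotypes in cold, which had no call to keep. They also include the members named as lower for PPARA in cold, which had to differ. At the start the sign changed for Mrps18a with PPARG (0.37), Mrps6 in the WT cohort (0.11), Mrpl55 in TXNIP WT (-0.10) and TXNIP KO mice (-0.24), and Mrps18a (-0.18) and Mrps15 (-0.064) between genotypes in cold. Mrpl18 in the WT cohort was 0.022 in the gene body and 0.077 at the start, Mrpl46 in TXNIP WT mice 0.25 and 0.14, Mrps15 in the gene body -0.071, and Mrpl20 with PPARA -0.17 without scaling. The cause was not tested.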
